A study of Mus musculus with 18 samples.

Results

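Described here are 8 genes of extracellular matrix breakdown in endothelial cells (ECs), out of 16248 genes listed. They were taken by name, with earlier results of these data known. They are the proteases Adamts1, Adamts4, Adamts9, Mmp2 and Mmp14 and the inhibitors Timp1, Timp2 and Timp3. All 8 were listed and all 8 passed the filter on low values. RNA-seq was carried out on CD45-negative, CD31-positive ECs sorted from female FVB mice, with 6 groups of 3 libraries. Wild-type mice without a tumour gave normal ECs, taken from their mammary fat pads. MMTV-PyMT ECs came from spontaneous breast tumours of transgenic mice, in which a viral promoter that is active in mammary epithelium drives the polyoma middle T oncogene, and treatment of these mice began at 9 weeks of age. Implanted ECs came from tumours grown in the fat pad of FVB mice after cultured MMTV-PyMT tumour cells were placed there in Matrigel, a basement membrane extract, at 8 to 9 weeks of age. Each tissue was injected with PBS or with cGAMP, an agonist of the DNA-sensing protein STING, and was taken 3 h later.

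The extracellular matrix around a vessel is a sheet of collagen IV, laminin and nidogen, surrounded by proteoglycans such as versican. ADAMTS proteases are secreted and cut proteoglycans. Matrix metalloproteinases (MMPs) cut collagens and other matrix proteins, and Mmp14, which sits in the plasma membrane, activates the pro-form of Mmp2 in a complex that contains Timp2. TIMPs are the tissue inhibitors of MMPs, and Timp3 differs from the others in that it binds to the matrix and also blocks several ADAMTS and ADAM enzymes. Endothelial sprouting and vessel permeability are both known to depend on the balance of these activities. The values here are RNA levels and hold no information on protein or on enzyme activity.

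Each library held between 9131467 and 12121427 recovered reads, so depth differed by at most 1.33-fold. The total that the FPKM values were divided by was not a fixed multiple of these reads. It was 1.09 to 1.16 times the recovered reads in normal ECs and 0.740 to 0.835 times in implanted ECs under cGAMP, so FPKM ran higher there than shares of reads. All 8 EC markers were listed, with a summed level of 640 to 1740 FPKM per library, so the labelled cell type was present in every library. Under PBS the sum was 892 to 1015 FPKM in normal, 640 to 793 FPKM in MMTV-PyMT and 1001 to 1269 FPKM in implanted ECs. Other cell types left signal as well. The 10 mural markers summed to 1115 to 1250 FPKM in normal ECs under PBS and to 262 to 358 and 294 to 333 FPKM in MMTV-PyMT and implanted ECs under PBS. The 8 epithelial markers summed to 881 to 957 FPKM in MMTV-PyMT ECs under PBS against 324 to 412 FPKM in normal ECs. Leukocyte markers (7 of 8 listed) stayed between 19.2 and 67.7 FPKM in every library except implanted cGAMP 2, at 238 FPKM. Of 5 adipocyte markers only Pck1 was listed, at 1.58 FPKM or less. Of 12 early response genes, which also react to tissue dissociation, 7 fell under cGAMP in normal ECs, none by 2-fold or more. Under PBS, 9 were lower and 3 higher in implanted than in normal ECs. Of all genes tested, 31.9% and 48.7% changed either way in these comparisons at an adjusted p under 0.05. The part of the early response genes and of the cell type markers in the results was not tested. For the genes described here, implanted cGAMP 1 and MMTV-PyMT PBS 1 stood above the other libraries of their groups for several members, and calls that change without them are given with and without them. Both also had the highest EC marker sums of their groups (1740 against 1062 and 1276 FPKM, and 793 against 680 and 640 FPKM) and the highest mural sums (557 against 397 and 251 FPKM, and 358 against 305 and 262 FPKM). Implanted cGAMP 1 had the lowest epithelial sum, 264 FPKM.

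The genes lie on 8 different chromosomes (GRCm38/mm10, GENCODE M21, all protein-coding). Adamts1 (ENSMUSG00000022893.14) spans bases 85793827 to 85803113 of chromosome 16, Adamts4 (ENSMUSG00000006403.13) 171250421 to 171260637 of chromosome 1 and Adamts9 (ENSMUSG00000030022.14) 92772699 to 92943492 of chromosome 6. Mmp2 (ENSMUSG00000031740.8) spans 92827291 to 92853420 of chromosome 8 and Mmp14 (ENSMUSG00000000957.11) 54431612 to 54445364 of chromosome 14. Timp1 (ENSMUSG00000001131.11) spans 20870166 to 20874735 of chromosome X, Timp2 (ENSMUSG00000017466.9) 118301069 to 118355740 of chromosome 11 and Timp3 (ENSMUSG00000020044.13) 86300372 to 86349506 of chromosome 10. FPKM sum reads over all exons of a gene, so isoforms were not told apart.

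Sequences just upstream of the genes are shown for Adamts1, Adamts9, Timp1 and Timp3, 4 of the 5 members that rose under cGAMP in all tissues, because promoters of genes that move together are where shared motifs are usually sought. RefSeq start sites (GRCm38.p6) were available for 6 of the 8 members, with none for Adamts4 and Mmp2. These starts can differ from those of GENCODE given above. The Timp3 window runs past the GENCODE start at base 86300372, so its last bases, with the GC box, lie inside the GENCODE gene. The Timp2 window, which is not shown, lies wholly inside the GENCODE gene. Each run gives the 250 bases before the start site, 5′ to 3′ on the strand of the gene. Capitals mark TATAAA and the GC box GGGCGG, which reads CCGCCC on the other strand.
Adamts1, chr16:85803114-85803363, minus strand: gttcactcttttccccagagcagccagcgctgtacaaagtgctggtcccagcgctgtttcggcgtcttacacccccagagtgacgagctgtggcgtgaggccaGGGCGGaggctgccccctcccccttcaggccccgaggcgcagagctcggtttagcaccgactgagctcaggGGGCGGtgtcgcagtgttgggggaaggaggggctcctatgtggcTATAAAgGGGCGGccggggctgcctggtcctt
Adamts9, chr6:92943535-92943784, minus strand: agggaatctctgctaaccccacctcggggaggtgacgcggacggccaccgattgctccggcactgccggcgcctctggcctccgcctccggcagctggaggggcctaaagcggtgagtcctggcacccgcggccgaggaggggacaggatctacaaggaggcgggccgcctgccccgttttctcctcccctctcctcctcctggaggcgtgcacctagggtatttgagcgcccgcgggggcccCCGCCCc
Timp1, chrX:20869916-20870165, plus strand: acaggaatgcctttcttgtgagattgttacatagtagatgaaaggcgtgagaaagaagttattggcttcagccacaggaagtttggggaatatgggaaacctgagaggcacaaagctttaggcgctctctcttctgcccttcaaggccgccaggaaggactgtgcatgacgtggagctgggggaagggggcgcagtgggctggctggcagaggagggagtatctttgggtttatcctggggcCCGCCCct
Timp3, chr10:86300162-86300411, plus strand: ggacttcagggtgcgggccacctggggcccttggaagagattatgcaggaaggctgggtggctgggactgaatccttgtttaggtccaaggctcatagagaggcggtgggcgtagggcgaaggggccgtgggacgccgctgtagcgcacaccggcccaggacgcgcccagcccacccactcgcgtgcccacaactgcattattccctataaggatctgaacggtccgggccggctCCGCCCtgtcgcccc
The Adamts9 window lies in an intron of the antisense gene 9530026P05Rik, and the Timp1 window lies in an intron of Syn1, a synaptic gene on the opposite strand that contains the whole of Timp1. On either strand, none of the 6 windows held the AP-1 site TGANTCA, the interferon-stimulated response element core, the cyclic AMP response element TGACGTCA, the GAS element TTCNNNGAA or the NF-kB site. Among 32851 promoters of the same length, these motifs occurred in 6.7%, 3.0%, 1.5%, 7.0% and 3.9%. TATAAA and the GC box were added after the sequences had been seen. The Adamts1 window held TATAAA at 32 bases before the start, a motif found in 12.4% of promoters, and 3 GC boxes at 147, 76 and 25 bases before it. The other windows held no TATAAA. A GC box was found in all 6 windows, against 32.7% of promoters. A match or its absence describes these letters only.

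Across the 18 libraries, Adamts4 had the widest range of the 8 genes, from 11.1 FPKM in normal PBS 2 to 447 FPKM in implanted cGAMP 1, which is 40.4-fold. Per recovered read the range was 26.5-fold. On the FPKM scale, Timp1 ranged 15.9-fold, Timp3 8.06-fold, Adamts1 6.57-fold, Adamts9 5.82-fold and Mmp14 5.42-fold. Timp2 and Mmp2 varied least, at 2.89-fold and 2.83-fold, but per recovered read Timp2 ranged 4.06-fold and Mmp14 3.69-fold. Levels in FPKM are divided by the joined length of all annotated exons of a gene, 15048 bases for Adamts9 and 8144 for Timp3. A gene whose expressed isoforms are shorter gets too low a value, so comparisons between genes are approximate. The mean level of Adamts1 lay at the 99.4th percentile of listed genes and that of Timp3 at the 99.0th, while Timp1 lay at the 77.4th. Timp1 rested on 20 to 245 reads per library, fewer than any other member, and its exons add up to 888 bases.

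**Figure D1:**
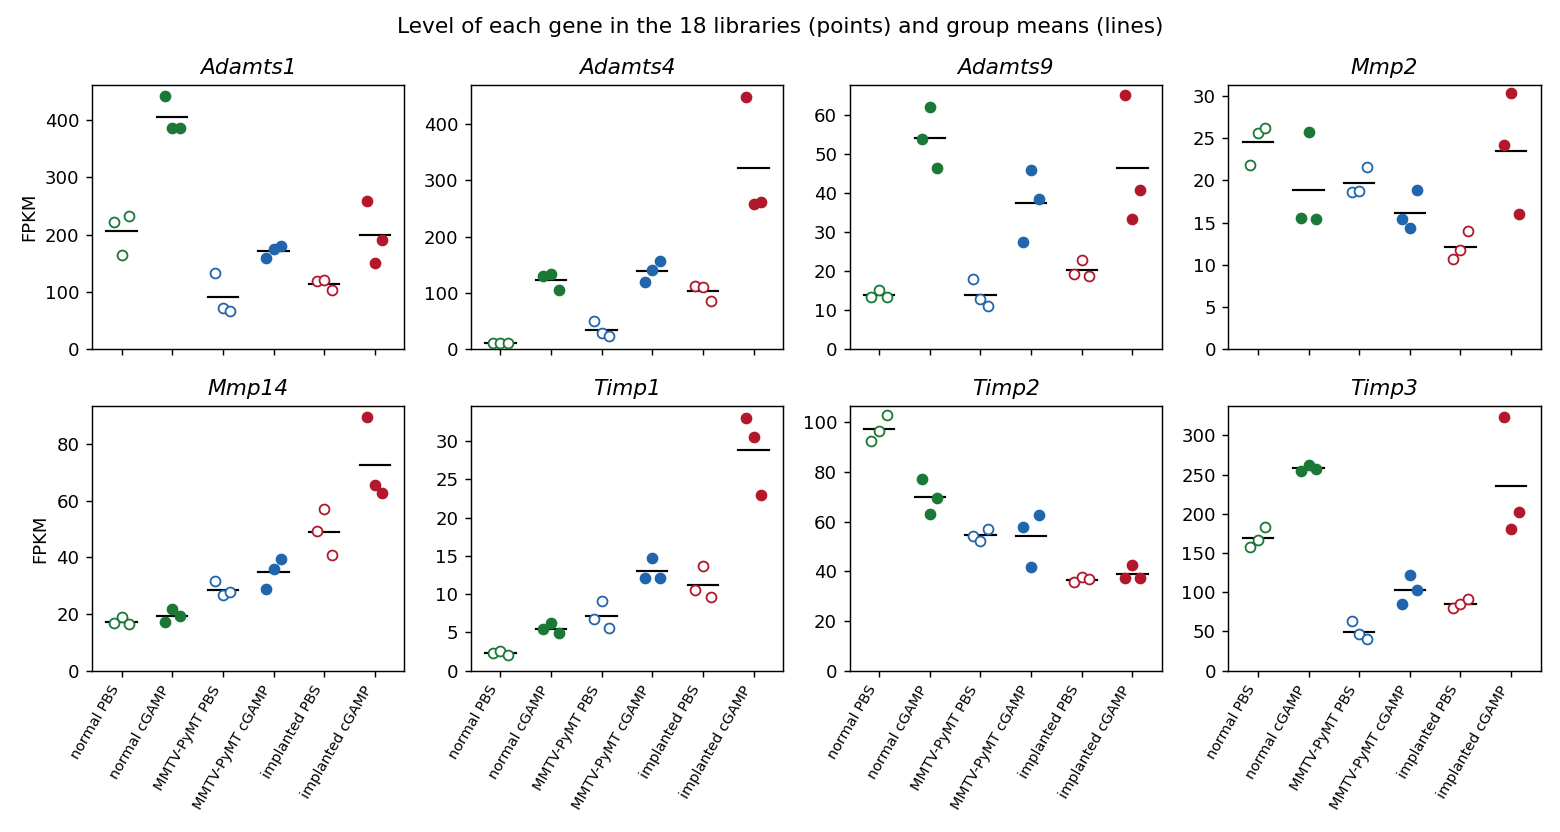
Level of each of the 8 genes in FPKM (vertical axis, from 0) in the 6 groups (horizontal axis), with 1 point per library, open for PBS and filled for cGAMP, and a line at the group mean. Adamts4 is lowest in normal ECs under PBS, at 11.1 to 11.5 FPKM, and highest in implanted ECs under cGAMP, at 258 to 447 FPKM, and Timp2 runs the other way, from 92.5 to 103 FPKM down to 35.5 to 42.7 FPKM in implanted ECs.

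The first question was how the genes respond to cGAMP within each tissue. In normal ECs, Adamts4 and Adamts9 rose by at least 2-fold, Adamts1, Timp1 and Timp3 rose by less, and Timp2 fell. In MMTV-PyMT ECs, Adamts4, Adamts9 and Timp3 rose by at least 2-fold, and Adamts1 and Timp1 by less. In implanted ECs, Adamts4, Adamts9, Timp1 and Timp3 rose by at least 2-fold, and Adamts1, Mmp2 and Mmp14 by less. A gene is said to rise or fall at an adjusted p under 0.05 (limma, Benjamini-Hochberg over 13983 genes tested), and is called when the change on the log2(FPKM + 1) scale is also at least 1, or 2-fold. Called members numbered 2 of 8 in normal, 3 of 8 in MMTV-PyMT and 4 of 8 in implanted ECs, against 3.7%, 2.56% and 7.22% of all genes tested. All of these members were higher, as were 3.02%, 2.49% and 6.13% of all genes. Without the limit of 2-fold, 6, 5 and 7 members passed, against 31.9%, 12% and 39.1% of genes. The cGAMP libraries all lay above the PBS libraries for 5, 5 and 7 members, against 20.9%, 14.8% and 22.4% of genes. Several of these members lay near the limit, and 3 of the calls (Timp3 in MMTV-PyMT ECs, Adamts9 and Timp1 in implanted ECs) fell under 2-fold in some alternatives while still passing the test. The median change of the 8 members was 0.79, 0.89 and 0.99 on the log2 scale, beside -0.04, -0.04 and -0.01 for all genes tested. The members were chosen with earlier results of these data known. These counts and medians therefore describe them and do not test them as a group. In bulk RNA, a change in the number of cells of a kind and a change in RNA per cell cannot be told apart.

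**Figure D2:**
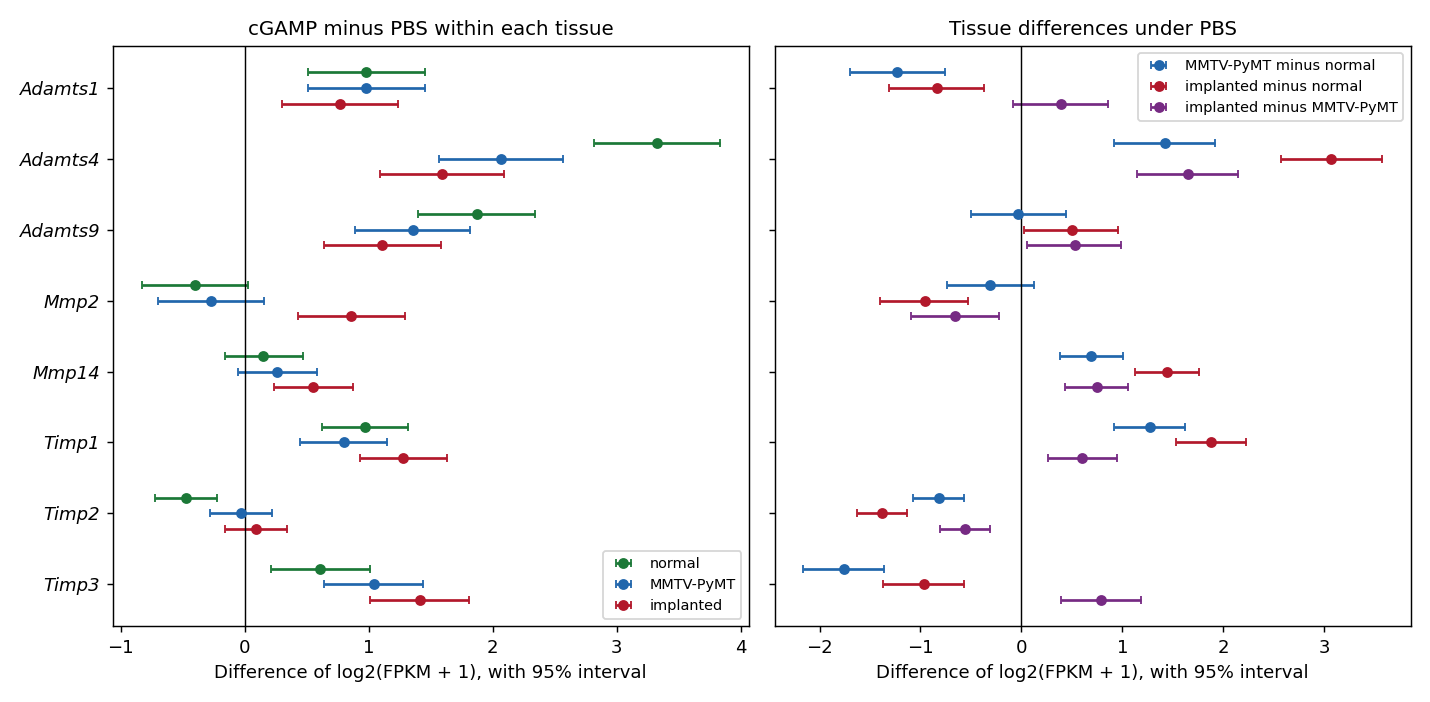
Differences of log2(FPKM + 1) (horizontal axes) with 95% intervals from limma for the 8 genes (vertical axis), for cGAMP minus PBS in each tissue (left) and for each pair of tissues under PBS (right). On the left, Adamts4 reaches 3.32 in normal ECs, and Mmp2 lies below 0 in normal and MMTV-PyMT ECs and at 0.86 in implanted ECs. On the right, Adamts4, Mmp14 and Timp1 lie above 0 in all 3 tissue pairs and Timp2 lies below 0 in all of them.

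Adamts4, a protease best known as an aggrecanase of cartilage, had the largest response. In normal ECs it measured 11.5, 11.1 and 11.5 FPKM under PBS and 130, 134 and 106 FPKM under cGAMP. In MMTV-PyMT ECs the values were 49.4, 29.2 and 22.8 FPKM under PBS and 119, 141 and 157 FPKM under cGAMP. In implanted ECs they were 112, 111 and 86.3 FPKM under PBS and 447, 258 and 262 FPKM under cGAMP. The cGAMP libraries lay above the PBS libraries in every tissue, with no overlap. On the log2 scale the rise was 3.32 for normal, 2.07 for MMTV-PyMT and 1.59 for implanted ECs (SE 0.24 each, limma adjusted p = 6.43e-08, 1.18e-05 and 5.77e-05). By group means this was 10.9-fold, 4.11-fold and 3.12-fold. The rise in implanted ECs was 1.33 without implanted cGAMP 1.

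On the log2 scale, the response of Adamts4 was smaller in both tumours than in normal ECs, where its level under PBS was lowest. The same PBS libraries enter that level and the response. In FPKM the gap between group means was widest in implanted ECs, at 103 and 322 FPKM, against 11.3 and 123 FPKM in normal and 33.8 and 139 FPKM in MMTV-PyMT ECs. The difference of the effects was -1.73 (95% interval -2.44 to -1.02, adjusted p = 0.00196) for implanted minus normal ECs and -1.25 (-1.96 to -0.55, 0.0304) for MMTV-PyMT minus normal ECs. Between the tumours it was -0.48 (-1.18 to 0.23, 0.419). The second of these differences missed the threshold in 8 of 18 fits that left out a library, with adjusted p-values of 0.0539 to 0.0675 and differences of -0.95 to -1.27, the smallest without MMTV-PyMT PBS 1. Without implanted cGAMP 1 and MMTV-PyMT PBS 1 together, the difference between the tumours became -1.04 (adjusted p = 0.00661), a choice made after seeing the data. Under cGAMP, normal and MMTV-PyMT ECs overlapped, at 106 to 134 and 119 to 157 FPKM, and untreated implanted ECs overlapped with cGAMP-treated normal ECs.

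Adamts9, a versican-cleaving protease that is also known as a gene of normal microvessels, rose in all tissues. It measured 13.5, 15.2 and 13.4 FPKM in normal ECs under PBS and 53.9, 62.2 and 46.6 FPKM under cGAMP. MMTV-PyMT ECs held 17.9, 12.8 and 11.2 FPKM under PBS and 27.6, 46.1 and 38.5 FPKM under cGAMP. Implanted ECs held 19.3, 22.8 and 18.7 FPKM under PBS and 65.1, 33.5 and 40.9 FPKM under cGAMP. Groups did not overlap within any tissue, and the order of the 3 cGAMP groups was not clear, since neighbours overlapped. For normal, MMTV-PyMT and implanted ECs, the log2 rise was 1.87, 1.36 and 1.11 (SE 0.22 each, adjusted p = 1.44e-05, 0.000529 and 0.000826). The rise in implanted ECs was under 2-fold without implanted cGAMP 1 (0.85, adjusted p = 0.00456), after quantile normalization (0.75, 0.00687) and with total read scaling (0.80, 0.00325). The difference between implanted and normal ECs was -0.76 (95% interval -1.42 to -0.10, adjusted p = 0.102). It became -1.03 (adjusted p = 0.0162) without implanted cGAMP 1, -1.07 (0.0122) with scaling by total reads and -1.14 (0.0112) after quantile normalization. Up to 9.2% of the exon bases of Adamts9 are shared with an opposite-strand gene (A730049H05Rik, 0.610 to 6.64 FPKM), and use of the strand in counting was not stated.

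Adamts1, a protease that cuts versican and is known to restrain angiogenesis, had the highest mean FPKM of the 3 in every group except implanted ECs under cGAMP. It measured 221, 164 and 233 FPKM in normal ECs under PBS and 442, 386 and 386 FPKM under cGAMP. In MMTV-PyMT ECs it went from 133, 71.8 and 67.3 FPKM to 159, 175 and 180 FPKM, and in implanted ECs from 119, 120 and 103 FPKM to 258, 150 and 190 FPKM. The treated libraries lay above the untreated ones in each tissue, narrowly so in MMTV-PyMT ECs because of PBS library 1. Its log2 rise was 0.98 in both normal (adjusted p = 0.00329) and MMTV-PyMT ECs (0.00861) and 0.77 in implanted ECs (0.0119), each with an SE of 0.22. The rise in implanted ECs missed the threshold without implanted cGAMP 1 (0.56, adjusted p = 0.0695), with scaling by total reads (0.45, 0.0771) and after quantile normalization (0.29, 0.269). That in MMTV-PyMT ECs missed it without MMTV-PyMT PBS 3 (0.80, 0.0573) and was 1.28 without MMTV-PyMT PBS 1. The effects of 2 tissues differed by -0.21 at most, with 95% intervals that reached from -0.88 to 0.66. Without implanted cGAMP 1 and MMTV-PyMT PBS 1, the effect in implanted minus MMTV-PyMT ECs became -0.72 (adjusted p = 0.0381).

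The 3 ADAMTS genes are given next as sums of FPKM, with no test. The limit given above on comparing FPKM between genes applies to the shares. Normal ECs held 232 ± 36.2 FPKM (mean ± SD, n = 3) under PBS and 582 ± 43.4 FPKM under cGAMP. The sums were 138 ± 53.7 and 347 ± 37.2 FPKM for MMTV-PyMT ECs, and 237 ± 25.2 and 568 ± 177 FPKM for implanted ECs. Their makeup differed more between groups than between libraries of a group. Adamts4 made up 4.45% to 5.81% of the sum in normal ECs under PBS and 19.7% to 23.1% under cGAMP. In MMTV-PyMT ECs its share was 22.5% to 25.6% and 38.9% to 41.8%, and in implanted ECs 41.4% to 44.9% and 53.2% to 58.4%. The SD of this share was between 0.732 and 2.91 percentage points in every group, implanted cGAMP included, although implanted cGAMP 1 had the highest level of Adamts4 of all libraries. Adamts1 made up 88.8% of the sum in normal ECs under PBS and 35.3% in implanted ECs under cGAMP.

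**Figure D3:**
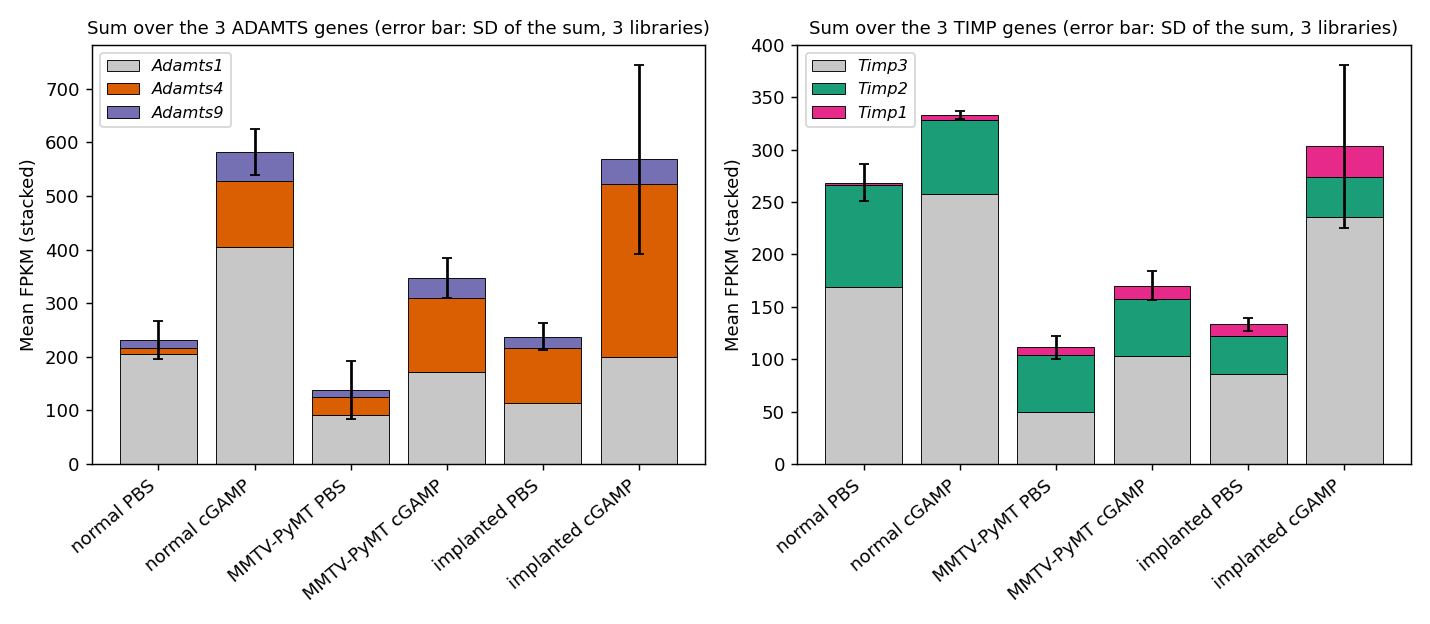
Mean FPKM (vertical axes, from 0) of the 3 ADAMTS genes (left) and the 3 TIMP genes (right), stacked for each group (horizontal axes), with error bars for the SD of the sum over 3 libraries. Adamts4 takes 4.98% of the ADAMTS sum in normal ECs under PBS and 56.5% in implanted ECs under cGAMP, and Timp3 takes 44.4% to 77.4% of the TIMP sum.

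Mmp2, the secreted gelatinase A, responded to cGAMP in implanted ECs and did not pass the test elsewhere. It measured 10.7, 11.7 and 14.0 FPKM in implanted ECs under PBS and 24.2, 30.3 and 16.0 FPKM under cGAMP, with no overlap. Normal ECs held 21.8, 25.6 and 26.2 FPKM under PBS and 15.5, 25.7 and 15.4 FPKM under cGAMP, and MMTV-PyMT ECs held 18.6, 18.7 and 21.6 against 15.4, 14.3 and 18.8 FPKM. The change in implanted ECs was 0.86 ± 0.20 (SE, adjusted p = 0.00336), beside -0.40 ± 0.20 for normal (0.150) and -0.27 ± 0.20 for MMTV-PyMT ECs (0.422). The value in normal ECs became -0.63 (adjusted p = 0.0258) without normal cGAMP 2. The effect in implanted ECs exceeded that in MMTV-PyMT ECs by 1.13 (95% interval 0.52 to 1.74, adjusted p = 0.0179) and that in normal ECs by 1.26 (0.65 to 1.87, 0.00619).

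In implanted ECs, fibroblast markers moved with Mmp2 under cGAMP. Their sum over 10 genes was 326, 287 and 298 FPKM in implanted ECs under PBS and 611, 747 and 310 FPKM under cGAMP. Of the 10, 7 rose, none of them by 2-fold, Dcn by 0.91 and Fbln1 by 0.81 on the log2 scale. Among all genes tested, 39.1% passed either way in this comparison. Implanted cGAMP 2 had the highest Mmp2 level of its group and the highest fibroblast and leukocyte sums of all libraries, and implanted cGAMP 3, whose fibroblast sum was near those under PBS, held 16.0 FPKM of Mmp2. Without implanted cGAMP 2, the rise of Mmp2 was 0.66 (adjusted p = 0.0185) and its excess over MMTV-PyMT ECs 0.93 (0.0376). That excess missed the threshold without implanted cGAMP 1 and MMTV-PyMT PBS 1 (1.12, 0.0547). Across tissues under PBS, Mmp2 and the fibroblast sum ran in opposite directions, but single markers did not all follow the sum. In normal, MMTV-PyMT and implanted ECs, Col1a1 measured 33.8, 90.5 and 186 FPKM. Dcn and Dpt ran down in that order, at 11.2, 6.84 and 2.25 FPKM and at 8.09, 2.65 and 1.24 FPKM. Of the 10 markers, 4 were lower and 1 higher in implanted than in MMTV-PyMT ECs, and 4 lower and 3 higher than in normal ECs. In these comparisons 45.5% and 48.7% of all genes passed. Normal ECs under PBS held 24.5 ± 2.39 FPKM of Mmp2 (SD, n = 3) with a fibroblast sum of 124 to 150 FPKM. MMTV-PyMT ECs held 19.6 ± 1.68 FPKM with a sum of 166 to 261 FPKM, and implanted ECs 12.1 ± 1.7 FPKM with 287 to 326 FPKM. The part of fibroblast RNA in the response was not tested.

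**Figure D4:**
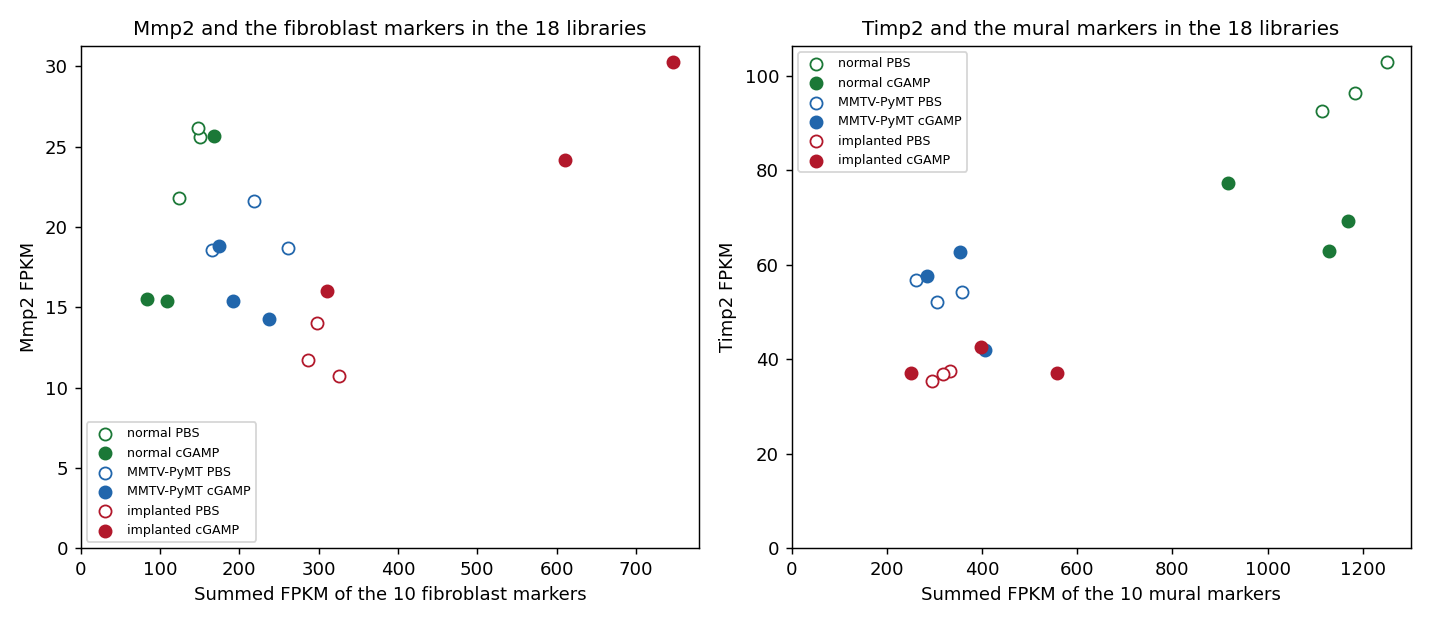
Level of Mmp2 against the summed level of 10 fibroblast markers (left) and of Timp2 against that of 10 mural markers (right), all axes in FPKM from 0, with 1 point per library, open for PBS and filled for cGAMP. Implanted cGAMP 1 and 2 lie apart on the left at 611 and 747 FPKM of fibroblast markers, and the 6 normal libraries lie apart on the right at 916 to 1250 FPKM of mural markers.

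Mmp14, the membrane-bound activator of pro-Mmp2, rose under cGAMP in implanted ECs and did not pass the test elsewhere. In implanted ECs it measured 49.5, 57.0 and 40.9 FPKM under PBS and 89.8, 65.5 and 62.8 FPKM under cGAMP. MMTV-PyMT ECs held 31.6, 26.7 and 27.7 against 29.0, 35.8 and 39.3 FPKM, and normal ECs 16.7, 18.8 and 16.6 against 17.2, 21.9 and 19.3 FPKM, both with overlap. With an SE of 0.15, the log2 change was 0.55 for implanted (adjusted p = 0.00782), 0.26 for MMTV-PyMT (0.280) and 0.15 for normal ECs (0.463). The rise in implanted ECs did not pass with scaling by total reads (0.24, adjusted p = 0.131), after quantile normalization (0.15, 0.368) or in a fit of those groups alone (0.55, 0.0526), and was 0.39 (0.0475) without implanted cGAMP 1. The effect did not differ detectably between tissues, with -0.05 to 0.84 as the interval for implanted minus normal ECs.

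Timp1, a secreted inhibitor that is weak against membrane-bound MMPs, rose in every tissue from a low level. It measured 2.29, 2.56 and 2.08 FPKM in normal ECs under PBS and 5.41, 6.21 and 4.87 FPKM under cGAMP. MMTV-PyMT ECs went from 6.70, 9.04 and 5.58 to 12.1, 14.7 and 12.1 FPKM, and implanted ECs from 10.5, 13.7 and 9.57 to 33.0, 30.5 and 22.9 FPKM. No group overlapped with its own control. Implanted ECs had a log2 rise of 1.28 (adjusted p = 1.35e-05), normal ECs one of 0.97 (0.000389) and MMTV-PyMT ECs one of 0.80 (0.00432), with an SE of 0.16. The rise in implanted ECs was 0.97 (8.06e-05) with total read scaling, just under 2-fold. The pseudocount of 1 shortens the changes of this gene, and voom on recovered reads gave 1.35, 1.25 and 0.91 in the same order of tissues. The effects did not differ between tissues by the test, with an interval of -0.01 to 0.97 for implanted minus MMTV-PyMT ECs.

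Timp3, the matrix-bound inhibitor of ADAMTS and ADAM proteases, was the most abundant TIMP in 5 of 6 groups and rose in all tissues. In normal ECs it measured 158, 166 and 183 FPKM under PBS and 255, 262 and 257 FPKM under cGAMP. MMTV-PyMT ECs held 63.2, 46.4 and 40.1 against 84.7, 122 and 103 FPKM, and implanted ECs 80.1, 84.7 and 91.7 against 323, 181 and 202 FPKM. Treated and untreated libraries were apart in each tissue. The log2 rise, with an SE of 0.19, was 0.61 for normal (adjusted p = 0.0217), 1.04 for MMTV-PyMT (0.00146) and 1.41 for implanted ECs (2.17e-05). The first of these missed the threshold without normal PBS 1, normal PBS 2, normal cGAMP 2 or normal cGAMP 3 (0.56 to 0.61, adjusted p = 0.0507 to 0.0694). The rise in implanted ECs was 1.16 without implanted cGAMP 1. That in MMTV-PyMT ECs was under 2-fold after quantile normalization (0.99, 0.000568), with total read scaling (0.91, 0.00169), without MMTV-PyMT PBS 3 (0.90, 0.0130) and without MMTV-PyMT cGAMP 2 (0.92, 0.0121). The excess of implanted over normal ECs, 0.80 (95% interval 0.23 to 1.36, adjusted p = 0.0490), did not hold under most alternatives, among them 0.54 (0.0961) without implanted cGAMP 1 and 0.39 (0.248) after quantile normalization. The excess of MMTV-PyMT over normal ECs was 0.43 (adjusted p = 0.347), and 0.61 (0.0377) without implanted cGAMP 1 and MMTV-PyMT PBS 1. Exons of Timp3 share 21.3% of their bases with Syn3 on the opposite strand, which was listed at 0.141 to 2.54 FPKM.

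Timp2, the inhibitor that takes part in the activation of Mmp2, was the only member that fell under cGAMP in any tissue when all libraries were used. It measured 92.5, 96.4 and 103 FPKM in normal ECs under PBS and 77.3, 63.0 and 69.4 FPKM under cGAMP, with no overlap and a log2 change of -0.47 ± 0.12 (SE, adjusted p = 0.00621). MMTV-PyMT ECs held 54.2, 52.2 and 56.9 against 57.6, 41.9 and 62.7 FPKM (-0.03, interval -0.28 to 0.22), and implanted ECs 35.5, 37.5 and 36.8 against 37.2, 42.7 and 37.2 FPKM (0.09, interval -0.16 to 0.34). The effect in implanted ECs exceeded that in normal ECs by 0.56 (95% interval 0.21 to 0.91, adjusted p = 0.0273). This difference missed the threshold with scaling by total reads (0.26, adjusted p = 0.298), after quantile normalization (0.32, 0.232) and without any of 4 libraries, normal PBS 3, normal cGAMP 2, implanted PBS 1 and implanted cGAMP 2 (0.49 to 0.54, 0.0566 to 0.0702). For MMTV-PyMT minus normal ECs it was 0.44 (0.09 to 0.80, 0.112), and 0.61 (0.0141) without MMTV-PyMT cGAMP 2.

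The effect of cGAMP was also compared between tissues as a difference of effects, as given above gene by gene. Called members numbered 1 of 8 for implanted minus MMTV-PyMT ECs (Mmp2), 2 of 8 for implanted minus normal ECs (Mmp2 and Adamts4) and 1 of 8 for MMTV-PyMT minus normal ECs (Adamts4), against 2.47%, 4.68% and 1.75% of all genes tested. Without the limit of 2-fold, 1, 4 and 1 members passed, against 11.1%, 18.6% and 8.37% of genes. The differences of Mmp2 fell under 2-fold with total read scaling (0.96 for both, adjusted p = 0.0327 and 0.0193), and the first also after quantile normalization (0.97, 0.0257). Comparisons of effects in different tissues share the libraries of the tissue they have in common. The limit given above on the choice of members applies to these counts as well.

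The second question was how the tissues differ without agonist. Relative to normal ECs, ECs of both tumours held more Adamts4, Mmp14 and Timp1 and less Adamts1, Timp2 and Timp3, and implanted ECs also held less Mmp2. Called members numbered 4 of 8 for implanted against normal ECs, 4 of 8 for MMTV-PyMT against normal ECs and 1 of 8 for implanted against MMTV-PyMT ECs, against 11.5%, 13.9% and 7.33% of all genes tested. Without the limit of 2-fold, 7, 6 and 6 members passed, against 48.7%, 56.5% and 45.5% of genes. The members moved in both directions, and their median was -0.17 for either tumour against normal ECs and 0.57 between the tumours, beside 0.01, 0.02 and -0.01 for all genes. EC markers differed in level as well. Of 8, 6 were higher and 1 lower in implanted than in MMTV-PyMT ECs (median 0.69), 5 were lower in MMTV-PyMT than in normal ECs (median -0.48), and 3 were higher and 1 lower in implanted than in normal ECs (median 0.33). Of all genes tested, 45.5%, 56.5% and 48.7% passed in these 3 comparisons, so the counts against normal ECs are near the share of all genes. The part of the EC markers in the members' differences was not tested. The PBS groups used here are also the controls of the cGAMP comparisons. Counts and medians of the members are again limited by their choice with earlier results known.

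Among the proteases under PBS, Adamts4 separated all 3 tissues. Its level was 11.3 ± 0.251 FPKM (SD, n = 3) for normal, 33.8 ± 13.9 FPKM for MMTV-PyMT and 103 ± 14.7 FPKM for implanted ECs, and the groups did not overlap. The log2 difference was 3.07 ± 0.24 (SE) for implanted against normal ECs (adjusted p = 3.89e-08), 1.42 ± 0.24 for MMTV-PyMT against normal ECs (0.000102) and 1.65 ± 0.24 between the tumours (4.79e-05). Mmp14 followed the same order, at 17.3 ± 1.25, 28.7 ± 2.59 and 49.1 ± 8.04 FPKM, with log2 differences of 1.44 for implanted (9.56e-07) and 0.69 for MMTV-PyMT ECs (0.00092) against normal ECs and 0.75 between the tumours (0.000781). Adamts1 was lower than in normal ECs by -1.23 in MMTV-PyMT (0.000215) and -0.84 in implanted ECs (0.00522). Implanted exceeded MMTV-PyMT ECs in Adamts1 by 0.39 (0.159), or by 0.70 (0.00724) without MMTV-PyMT PBS 1. Adamts9 did not pass in any tissue pair, with 14.0 ± 1.02, 14.0 ± 3.53 and 20.2 ± 2.2 FPKM, although implanted against MMTV-PyMT ECs (0.53, 0.0616) passed without MMTV-PyMT PBS 1 (0.71, 0.0237), and implanted against normal ECs (0.50, 0.0732) without implanted cGAMP 1 (0.50, 0.0303). Mmp2 was lower in implanted ECs, by -0.96 against normal (0.00102) and -0.66 against MMTV-PyMT ECs (0.0158), and the latter missed the threshold without MMTV-PyMT PBS 3 (-0.59, 0.0596) and without implanted PBS 1 (-0.57, 0.0583).

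The inhibitors under PBS split by gene. Timp1 went from 2.31 ± 0.243 FPKM (SD, n = 3) for normal to 7.11 ± 1.76 FPKM for MMTV-PyMT and 11.3 ± 2.19 FPKM for implanted ECs, log2 differences of 1.27 (adjusted p = 9.1e-06) and 1.88 (1.63e-07) from normal ECs and of 0.60 between the tumours (0.00719). Timp2 ran down in the same order, from 97.2 ± 5.1 to 54.4 ± 2.36 and 36.6 ± 0.992 FPKM, with differences of -0.82 (2.42e-05), -1.38 (1.17e-07) and -0.56 (0.0012). Timp3 was lowest in MMTV-PyMT ECs, at 49.9 ± 11.9 FPKM against 169 ± 12.8 FPKM for normal and 85.5 ± 5.85 FPKM in implanted ECs. Its log2 difference from normal ECs was -1.76 (1.39e-06) in MMTV-PyMT and -0.97 (0.000489) in implanted ECs, and implanted exceeded MMTV-PyMT ECs by 0.79 (0.00313). Of 10 mural markers, 8 were lower in each tumour than in normal ECs, alongside Timp2 and Timp3, and their part in these differences was not tested. Between the tumours no mural marker was lower in implanted ECs by the test and 4 of 10 were higher, where Timp2 was lower and Timp3 higher. Of all genes tested, 56.5% passed for MMTV-PyMT and 48.7% for implanted against normal ECs. Between the tumours 45.5% passed, so 4 of 10 is near the share of all genes.

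Ratios of FPKM describe the balance of RNAs, and are given with no test. Their size is approximate, since FPKM compares genes only roughly, as given above. The TIMP sum was 6.42 ± 0.394 (SD, n = 3) times the sum of Mmp2 and Mmp14 in normal ECs under PBS, 2.31 ± 0.201 times in MMTV-PyMT and 2.2 ± 0.281 times in implanted ECs. Under cGAMP the ratio was 8.95 ± 1.77, 3.36 ± 0.268 and 3.14 ± 0.425, higher in each tissue than under PBS with no overlap of libraries. Against the ADAMTS sum, the TIMP sum went the other way in normal ECs, from 1.02 to 1.39 under PBS to 0.540 to 0.614 under cGAMP, and in MMTV-PyMT ECs, from 0.621 to 1.01 to 0.474 to 0.506. In implanted ECs this ratio overlapped, at 0.504 to 0.663 and 0.511 to 0.577. Of the TIMPs, only Timp3 was introduced above as a blocker of ADAMTS enzymes. Under PBS, Timp2 made up 35.7% to 36.6% of the TIMP sum in normal, 43.7% to 55.5% in MMTV-PyMT and 26.7% to 28.2% in implanted ECs. The ratio to the ADAMTS sum is therefore no measure of inhibitor against target. The ratio of Mmp14 to Timp2 was 0.179 ± 0.0167 for normal, 0.527 ± 0.0503 for MMTV-PyMT and 1.34 ± 0.209 for implanted ECs under PBS, and 0.283 ± 0.0629, 0.662 ± 0.178 and 1.88 ± 0.471 under cGAMP. Only in implanted ECs did the FPKM of Mmp14 exceed that of Timp2, in all 6 libraries. The ratios to the sum of Mmp2 and Mmp14 leave out the 11 other MMP genes listed. In normal, MMTV-PyMT and implanted ECs these others summed to 50.9, 49.5 and 74.0 FPKM under PBS and 31.0, 42.5 and 72.2 FPKM under cGAMP. Mmp2 and Mmp14 summed to 41.9, 48.3 and 61.3 FPKM under PBS and 38.3, 50.9 and 96.2 FPKM under cGAMP.

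The other genes of the pathway were counted from lists. Of 21 other MMP genes 10 were tested, and 6 rose and 2 fell under cGAMP in implanted ECs, 3 fell in normal ECs and none passed in MMTV-PyMT ECs. Of all genes tested 39.1%, 31.9% and 12% passed in these comparisons, so 3 of 10 in normal ECs is near the share of all genes. Mmp3, stromelysin-1, rose by 1.43 ± 0.40 (SE) on the log2 scale in implanted ECs (adjusted p = 0.0105), where its libraries spanned 2.19 to 9.75 FPKM under PBS and 5.76 to 21.8 FPKM under cGAMP and so overlapped, and Mmp25, a membrane-anchored MMP of leukocytes, rose by 1.32 ± 0.18 (2.03e-05). Mmp28, or epilysin, fell by 1.15 in normal ECs (0.000399). Of 16 other ADAMTS genes 11 were tested, and Adamts8, known as an inhibitor of angiogenesis, was the only one called under cGAMP. Normal ECs held 0.706 ± 0.202 FPKM (SD, n = 3) of it under PBS and 13.9 ± 3.18 FPKM under cGAMP, MMTV-PyMT ECs 2.41 ± 0.187 and 15.8 ± 1.36 FPKM, and implanted ECs 2.56 ± 0.381 and 10.1 ± 1.58 FPKM. These are log2 changes of 3.11, 2.30 and 1.64, and as with Adamts4 the effect was smaller in implanted than in normal ECs, by -1.48 ± 0.20 (SE, adjusted p = 0.000135). Adam9 rose by 1.19 and Adam19 fell by 1.23 in implanted ECs, both proteases that shed membrane proteins.

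None of 3 other inhibitors tested was called under cGAMP. Timp4, the fourth TIMP, measured 11.4 ± 1.98 FPKM (SD, n = 3) in normal ECs under PBS, 0.779 ± 0.191 FPKM in MMTV-PyMT ECs and 0.365 ± 0.28 FPKM in implanted ECs, log2 differences of -2.80 and -3.19 (adjusted p = 9.53e-08 and 1.94e-08). Spock2, a proteoglycan of the testican family, was lower as well, by -2.36 and -3.32. It was listed by family, and a role as an inhibitor is not implied. Of the substrates, the basement membrane protein Nid2 measured 14.5 ± 2.69 FPKM for normal, 63.4 ± 5.21 FPKM for MMTV-PyMT and 189 ± 22.3 FPKM for implanted ECs under PBS. The versican gene Vcan rose under cGAMP in implanted ECs by 1.13 ± 0.23 (SE, adjusted p = 0.00124), from 3.25 ± 0.199 to 8.31 ± 1.05 FPKM, and was named after its values were seen.

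Finally, the genes with the most similar pattern were sought for the members, by Pearson correlation of log2(FPKM + 1) over 18 libraries, as a description in which group differences are shared by many genes. Adamts4 was closest to Pvr (r = 0.979), Abl2 (0.976) and Pdlim1 (0.966). The nearest genes were Kctd12 (0.948) for Adamts1 and Mir155hg (0.959) for Adamts9. For Mmp14 they were Ppic (0.987) and Ephb1 (0.983), for Timp1 B4galt3 and Sat1 (both 0.976) and for Timp2 Pitpnm3 (0.966). Mmp2 had the least similar neighbours, Postn (0.823), Il33 (0.805) and Zfp618 (0.761). Between members, the highest correlations were those of Mmp14 with Timp1 (0.92) and of Adamts1 with Timp3 (0.89), and the lowest was that of Mmp14 with Timp2 (-0.88).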

How the data were processed

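Bulk RNA of sorted ECs was sequenced in 6 groups of 3 libraries. The authors aligned reads to mm10 with STAR 2.7, counted them per gene with HTSeq and deposited FPKM. The step from counts to FPKM was not given in the sources used here. Of 18 columns, 12 name the tumour type, and the other 6 were taken as the normal fat pad. The table listed 16248 genes with no value at 0, and others were not analysed here. Whole reads were recovered from the steps of the values for 99.83% of genes. For genes with a single annotated exon length (GENCODE M21), 99.06% gave whole reads within 0.05.

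Genes that reached 1 FPKM in 3 or more libraries (13983, with 2265 below) were fitted as log2(FPKM + 1), which understates changes of low genes, with 1 mean per group in limma 3.58.1 (R 4.3.3, eBayes with trend, 2-sided). There were 9 comparisons, and p-values were adjusted by Benjamini-Hochberg over all tested genes. All members were named, and of the list genes at most 5 called per comparison, by size of change. The members and lists were chosen with earlier results of these data known. Alternatives covered the pseudocount, filter, scaling, voom on recovered reads, variance prior, samples and replicate number. Replicate libraries of a group differed by more than sampling noise (chi-square per gene 4.09 to 31.49). Replicates were described as 3 mice per group over independent experiments, and which library belongs to which was not stated. Some overlap and likeness results are not reported here.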

Additional observations from a re-analysis of the deposited data

Results flagged for a closer look

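The effect of cGAMP differed between tissues for 4 of the 8 genes by the test of the difference itself (limma, adjusted over all genes tested), 6 differences in all. For Adamts4 it was -1.73 for implanted minus normal ECs and -1.25 for MMTV-PyMT minus normal ECs on the log2 scale. For Mmp2 it was 1.13 for implanted minus MMTV-PyMT ECs and 1.26 for implanted minus normal ECs. Timp2 differed by 0.56 and Timp3 by 0.80 for implanted minus normal ECs. As given above, these differences of Timp2 and Timp3 and the second one of Adamts4 missed the threshold in several alternatives. The first one of Mmp2 missed it without implanted cGAMP 1 and MMTV-PyMT PBS 1. Among all genes tested, 11.1% had such a difference between implanted and MMTV-PyMT ECs, 18.6% between implanted and normal ECs and 8.37% between MMTV-PyMT and normal ECs. Of the 8 members, chosen with earlier results of these data known, 1, 4 and 1 did.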

How the results depend on the processing

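Over the member values and all alternatives, 1994 kept their direction and side of the threshold, 48 lost it, 24 gained it and 22 changed sign. The number of called members depended on the limit of 2-fold. Without it the number was 6, 5 and 7 for cGAMP in normal, MMTV-PyMT and implanted ECs, 4 for the effect in implanted minus normal ECs, and 6 and 7 for implanted against MMTV-PyMT and against normal ECs under PBS. After quantile normalization the number was 4 for cGAMP in normal ECs, 2 in implanted ECs and 0 for the effect in implanted minus MMTV-PyMT ECs. With scaling by total recovered reads it was 2 for cGAMP in implanted ECs, 0 for the effect in implanted minus MMTV-PyMT ECs and 7 for implanted against normal ECs under PBS, and this scaling moved the median of all genes to -0.05, -0.14 and -0.25 for cGAMP in normal, MMTV-PyMT and implanted ECs and to -0.13 for implanted ECs against either tissue under PBS. With voom it was 4 for cGAMP in normal ECs. Leaving out implanted cGAMP 1 and MMTV-PyMT PBS 1 together gave 0 for the effect in MMTV-PyMT minus normal ECs.

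With 1 library left out at a time, the number ranged from 2 to 4 for cGAMP in normal ECs (4 without normal cGAMP 3), from 2 to 4 in MMTV-PyMT ECs and from 3 to 5 in implanted ECs. It ranged from 0 to 1 for the effect in implanted minus MMTV-PyMT ECs (0 without implanted cGAMP 2), from 2 to 3 for implanted minus normal ECs and from 0 to 1 for MMTV-PyMT minus normal ECs. For the tissues under PBS it ranged from 4 to 6 for implanted against normal ECs, stayed at 4 for MMTV-PyMT against normal ECs and at 1 between the tumours.

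Changes of sign were small. Timp2 under cGAMP went to -0.22 in implanted ECs under both quantile normalization and total read scaling, and from -0.14 to 0.14 in MMTV-PyMT ECs when a library was left out. For the effect in implanted minus MMTV-PyMT ECs, quantile normalization gave -0.01 for Mmp14 and -0.10 for Timp2, scaling by total reads gave -0.06 for Timp2, leaving out a library gave -0.05 to 0.23 for Timp2, and leaving out both named libraries gave -0.07 for Timp3. For implanted minus normal ECs, quantile normalization gave -0.01 for Mmp14 and -0.06 for Timp1, and scaling by total reads -0.01 for Timp1. For MMTV-PyMT minus normal ECs, Mmp14 went to -0.01 and -0.02 under these scalings, and Adamts1 to between -0.18 and 0.30 when a library was left out and to 0.30 without both. Adamts9 in MMTV-PyMT against normal ECs ranged between -0.21 and 0.11 when a library was left out. The cause was not tested.

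No pairing by replicate number was seen in the deviations from group means. These correlated by -0.35 to 0.29 over 45 pairs with the same number and by -0.33 to 0.37 over 90 other pairs. With 3 libraries per group this cannot exclude a pairing. With a replicate block, Timp1 passed for the effect in implanted minus MMTV-PyMT ECs (0.48, adjusted p = 0.0498) and Timp3 did not for implanted minus normal ECs (0.80, 0.0676). No other call of a member changed. Timp1, with 20 to 245 reads per library, was the member most limited by depth.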

Other observations

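Other proteases of these families differed between tissues under PBS. Adam12, a disintegrin and metalloprotease, measured 1.33 ± 0.349 FPKM (SD, n = 3) for normal, 3.79 ± 0.0614 FPKM for MMTV-PyMT and 13.9 ± 1.06 FPKM for implanted ECs, and the groups did not overlap. Its log2 difference was 2.68 for implanted against normal ECs (limma, adjusted p = 1.94e-08), 1.05 for MMTV-PyMT against normal ECs (0.000263) and 1.63 between the tumours (8.43e-06). Adamts7 had the same order, at 3.45 ± 0.469, 7.98 ± 0.44 and 22.1 ± 1.59 FPKM, with differences of 2.38 (2.48e-07), 1.02 (0.00088) and 1.36 (0.000121). Adamts5, an aggrecanase like Adamts4, was lowest in MMTV-PyMT ECs, at 1.59 ± 0.178 FPKM against 5.13 ± 0.429 FPKM in normal and 4.25 ± 0.751 FPKM in implanted ECs.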
